A study of Mus musculus with 40 samples.

Results

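The comparison described here set the 10 left ventricular RNA libraries titled ONOFF TAC against the 10 titled Con TAC, 20 of the study's 40 libraries, chosen by these titles. Each genotype held 5 libraries labelled F and 5 labelled M, all from FVB/NJ mice. ONOFF mice carried dnOGAh, a dominant negative O-GlcNAcase (OGA) that is inducible and restricted to the heart, and Con mice were the study's controls. Both genotypes ate doxycycline food for 2 weeks to switch the transgene on and went back to standard chow for 2 weeks to switch it off. The surgery was transverse aortic constriction (TAC), in which a narrowed aorta makes the left ventricle pump against a raised pressure, and tissue was taken 9 weeks after surgery. The other 20 libraries came from mice of the same genotypes and feeding that had a sham operation, and are used below only for the difference between surgeries. The labels used here do not state the age of the mice, the promoter that drives the transgene, what the Con mice carry, or that each library is 1 mouse. The p-values therefore measure the spread between these libraries. The question was whether a period of raised O-GlcNAc, ended by design before surgery, changed the response of the heart to pressure overload.

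O-GlcNAc is a single sugar that the enzyme OGT attaches to serines and threonines of nuclear, cytosolic and mitochondrial proteins and that OGA removes, so an inactive OGA that competes with the normal enzyme raises it. A ventricle under lasting pressure overload enlarges its muscle cells, returns to fetal genes such as natriuretic peptides and skeletal actin, lays down collagen through activated fibroblasts, and lowers its oxidation of fatty acids. These changes are the usual yardsticks of pathological hypertrophy and of the passage to heart failure in mice.

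The authors deposited 1 table of normalized counts, in which the 20 TAC libraries summed to 35176220 to 47653987, and every level below is in that unit. Sequencing depth before normalization is unknown. Defining genes of ventricular muscle were high in all 20 libraries, with Myh6 at 726922 or above in Con TAC and 642320 or above in ONOFF TAC. Con TAC F replicates 2 and 3 had Xist at 51.7 and 6.72 against 1793 to 2556 in the other 8 F libraries of the comparison, with Y-linked genes as low as in the other F libraries. The summed level of the atrial muscle markers Sln, Myl7, Myl4 and Bmp10 was 13580 in Con TAC F replicate 3, 26000, 4462 and 3773 in ONOFF TAC F replicates 1 and 2 and M replicate 5, and 71.7 to 233 in the other 16 libraries. Mitochondrially encoded transcripts made up 8.28% of Con TAC M replicate 1 and 13.4% to 19.4% of the other 19. The labels do not explain the numbers in the library names. Of these, F15 is shared by 4 ONOFF TAC libraries, F replicates 2 to 4 and M replicate 1, and by no Con TAC library, and with name numbers as a random block 993 genes were called in place of the 1086 below. No 2 libraries were identical. All 20 were kept, and counts were also computed without the low-Xist and the atrial-marker libraries.

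After TAC, the genes called higher in ONOFF than in Con ventricles included many of the extracellular matrix, matricellular and stretch-responsive genes listed and the natriuretic peptide gene Nppa. Those called lower included genes for fatty acid oxidation, the TCA cycle, the respiratory chain and potassium channels. Of 15778 genes with a level of at least 10 in at least 5 of the 20 libraries, 1086 (6.88%) differed between the genotypes at an adjusted p below 0.05 in limma, with the F/M label as a term, and are called changed. Of these, 647 (4.1%) were higher and 439 (2.78%) lower in ONOFF TAC. These shares of all genes tested are the background to every list count below. Differences are given as ONOFF minus Con on the log2(value + 1) scale, with the standard error (SE). The median over all genes tested was -0.00048, which the authors' normalization sets near 0. Leaving out 1 library at a time gave 762 (without ONOFF TAC M replicate 3) to 1476 calls (without Con TAC F replicate 2), and the lower calls alone 268 to 672 without the same libraries. A log2 difference beyond 1 in either direction was found for 163 of the higher and 56 of the lower genes. Groups of 10 that did not overlap at all were found for 17 genes (0.108%), of which 15 (0.0951%) were higher and 2 (0.0127%) lower.

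**Figure D1:**
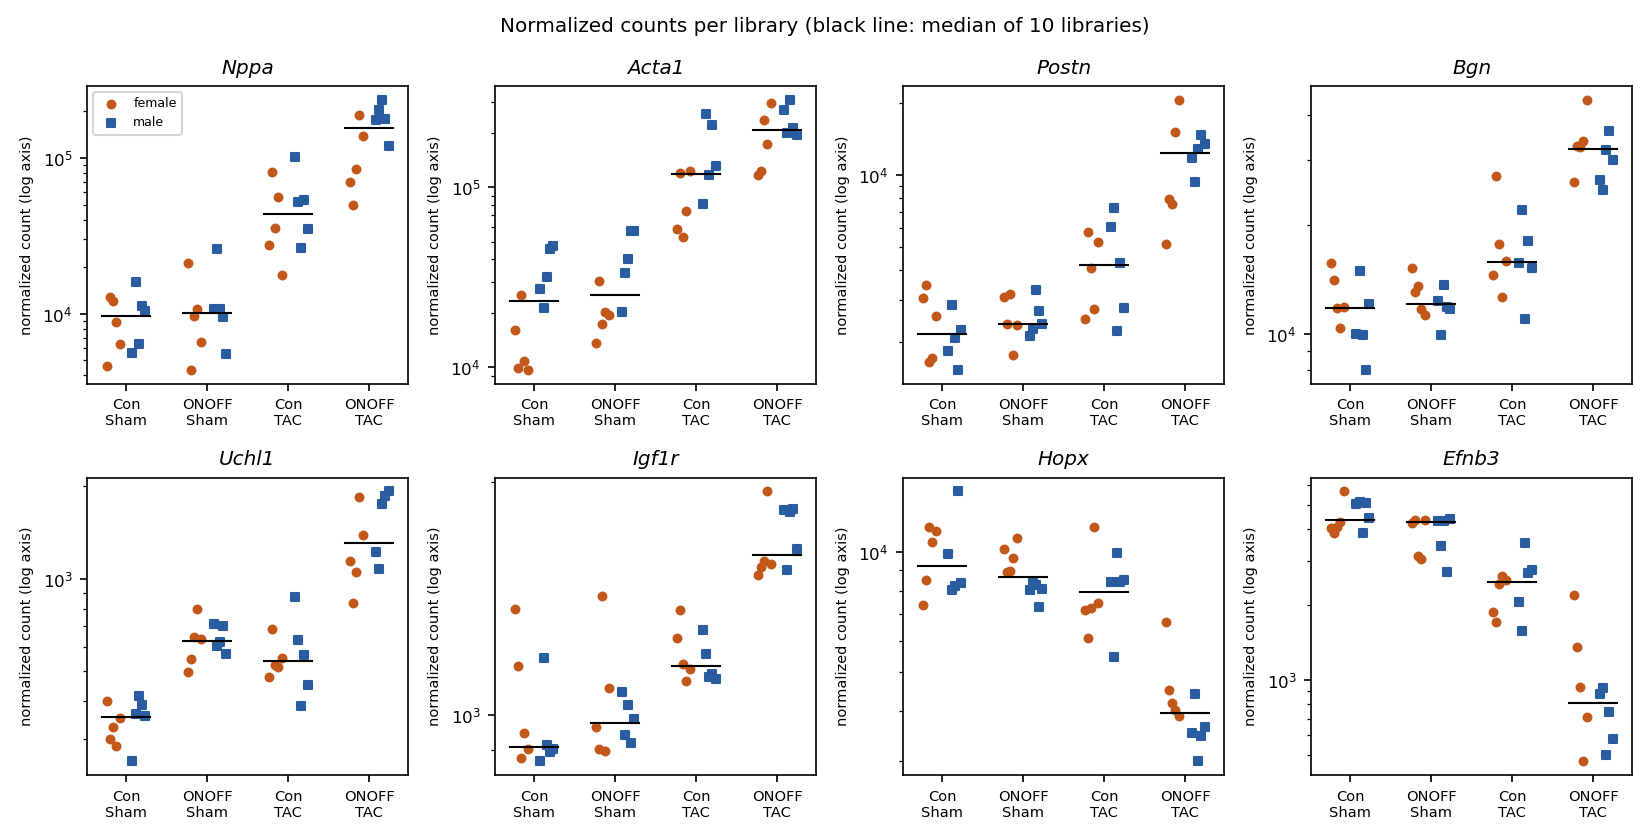
Normalized counts on a log axis of 8 genes in all 40 libraries, grouped by genotype and surgery, with females as circles, males as squares and the median of each group of 10 as a black line. Nppa, Acta1, Postn, Bgn, Uchl1 and Igf1r sit highest in ONOFF TAC and Hopx and Efnb3 lowest, and in Igf1r no ONOFF TAC library reaches down to a Con TAC library.

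Oga, the targeted gene, was read first. Its lowest, median and highest levels were 2195, 3073 and 3386 in Con TAC and 3058, 3537 and 5579.8 in ONOFF TAC. The groups overlapped, with 3 of the ONOFF libraries inside the Con range, and ONOFF TAC F replicates 2 and 3 were the highest. The log2 difference was 0.34 (SE 0.10, n = 10 per group, limma adjusted p = 0.0411), and an exact two-sided permutation test within each sex gave p = 0.00132. The call was lost in 12 of the 20 fits that left out 1 library (adjusted p up to 0.0813), without the libraries with atrial markers (log2 0.29, 0.0914), without those with low Xist (0.27, 0.0856) in a fit of all 40 libraries (0.0645) and with name numbers as a random block (0.0533). In sham hearts Oga was called as well, with a log2 difference of 0.83 (adjusted p = 0.000295). The table does not tell reads of the transgene from reads of the mouse gene, and O-GlcNAc itself was not measured, so these data do not show that the raised period had ended. Ogt, which adds the sugar, had medians of 2183 and 1980.5 and was not called (adjusted p = 0.553). Among 16 tested genes of the hexosamine pathway and of O-GlcNAc cycling Oga was the only one called, and the median log2 difference of the list was 0.06.

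Natriuretic peptides are hormones that the overloaded heart secretes. Nppa is the precursor of atrial natriuretic peptide. Its lowest, median and highest levels were 17637, 43874 and 101231 in Con TAC and 50127, 156483 and 236771 in ONOFF TAC. The 7 ONOFF libraries with the highest levels were above every Con library, and ONOFF TAC F replicates 1 to 3 lay within the Con range. The difference was 3.04-fold (log2 1.60, SE 0.29, adjusted p = 0.00278, higher than the Con mean of the same sex in 10 of 10 libraries). Atrial tissue is rich in Nppa. Of the 4 libraries with atrial markers, Con TAC F replicate 3 held 35613, and ONOFF TAC F replicates 1 and 2 and M replicate 5 held 69999, 50127 and 119542. Without these 4 the log2 difference was 1.91 (adjusted p = 0.00148). Npr3, the receptor that clears these peptides, rose from a median of 1117 to 1838 (log2 0.77, adjusted p = 0.00244). Mme, the protease neprilysin that degrades them, was 0.55 lower on the log2 scale, and this call (adjusted p = 0.0431) was lost in 14 of 20 single omissions, up to 0.0835. Nppb, the precursor of B-type natriuretic peptide, had medians of 24992 and 34892 and did not pass the test (log2 0.30, adjusted p = 0.213, and 0.0378 with library weights). Corin, which cuts the Nppa product, did not pass either (-0.36, 0.0867). It passed without Con TAC F replicate 2 (0.017) or ONOFF TAC F replicate 2 (0.0465). Of 14 other settings Corin stayed uncalled in 10. It passed with library weights (0.00655), in a fit of all 40 libraries (0.0385) and without the low-Xist (0.0142) or the atrial-marker libraries (0.0345). In all, 2 of the 9 tested members of the list were higher and 1 lower.

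The Z-disc anchors the thin filaments of neighbouring sarcomeres, and several of its partners are switched on when muscle is stretched. Of 23 tested stretch-responsive and Z-disc genes 9 were higher and 1 was lower in ONOFF TAC, with a median log2 difference of 0.30. The stretch sensor Ankrd1 (CARP) had lowest, median and highest levels of 138132, 186388 and 238829 in Con TAC and 181922, 276513 and 326185 in ONOFF TAC. ONOFF TAC F replicates 1 and 2 lay within the Con range and the other 8 above it, and the log2 difference was 0.49 (SE 0.10, adjusted p = 0.00391). Xirp2, which codes for a Xin-repeat protein that binds actin at the intercalated disc, went from a range of 34262 to 64043 in Con TAC to one of 45880.3 to 109094 in ONOFF TAC (log2 0.91, SE 0.14, adjusted p = 0.000888). Ankrd2, the relative of Ankrd1 that slow skeletal muscle uses, had ranges of 3.66 to 104 and 17.0 to 925 and showed a log2 difference of 2.63 (SE 0.58, adjusted p = 0.00910). The Z-disc proteins Synpo2l (0.87) and Flnc (0.52), the LIM proteins Lmcd1 (0.49) and Fhl1 (0.94), the ankyrin-repeat protein Ankrd23 (0.45) and the intermediate filament desmin, Des (0.47), were higher as well, with adjusted p values from 0.00208 to 0.0175. Fhl2, a LIM protein of the sarcomere, was the 1 lower member, with a log2 difference of -0.53 and an adjusted p of 0.0355 that was lost in 9 single omissions (up to 0.0729), after quantile normalization (0.0629) and without the libraries with atrial markers (0.0552). Flnc, Fhl1, Ankrd23 and Fhl2 lie outside the rule for named genes and were chosen after their values were seen.

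The promoters of Acta1, Ankrd1, Xirp2 and Hopx are printed because these genes changed and, as background, are known targets of serum response factor, MEF2 or TEAD factors in muscle or, for Hopx, a partner of serum response factor. Each line is 300 bases of RefSeq sequence on build GRCm38.p6, 250 before and 50 after the start of the gene, 5′ to 3′ on the gene's own strand. Capitals mark the motifs found: the CArG box that binds serum response factor, the MEF2 box, CATTCC on either strand, the core of the MCAT element read by TEAD factors, and TGANTCA on either strand, the site of AP-1.
Acta1, chr8:123894726-123895025, minus strand: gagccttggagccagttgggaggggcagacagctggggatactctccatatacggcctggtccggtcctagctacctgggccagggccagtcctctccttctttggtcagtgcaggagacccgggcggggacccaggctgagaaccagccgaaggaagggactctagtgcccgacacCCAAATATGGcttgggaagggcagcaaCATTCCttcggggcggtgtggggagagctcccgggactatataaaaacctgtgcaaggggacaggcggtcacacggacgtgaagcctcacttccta
Ankrd1, chr19:36119795-36120094, minus strand: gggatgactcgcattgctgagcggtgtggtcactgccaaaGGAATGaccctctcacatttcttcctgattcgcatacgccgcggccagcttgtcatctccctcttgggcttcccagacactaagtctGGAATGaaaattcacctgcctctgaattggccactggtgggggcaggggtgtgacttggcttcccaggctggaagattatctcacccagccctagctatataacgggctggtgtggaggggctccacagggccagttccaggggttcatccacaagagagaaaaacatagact
Xirp2, chr2:67445752-67446051, plus strand: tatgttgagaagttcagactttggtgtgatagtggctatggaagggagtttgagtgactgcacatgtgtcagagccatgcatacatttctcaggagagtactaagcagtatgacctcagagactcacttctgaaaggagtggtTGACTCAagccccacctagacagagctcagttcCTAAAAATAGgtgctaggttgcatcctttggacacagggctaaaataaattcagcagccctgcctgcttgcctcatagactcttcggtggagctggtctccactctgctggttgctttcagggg
Hopx, chr5:77115074-77115373, minus strand, 1 of 2 windows of the gene: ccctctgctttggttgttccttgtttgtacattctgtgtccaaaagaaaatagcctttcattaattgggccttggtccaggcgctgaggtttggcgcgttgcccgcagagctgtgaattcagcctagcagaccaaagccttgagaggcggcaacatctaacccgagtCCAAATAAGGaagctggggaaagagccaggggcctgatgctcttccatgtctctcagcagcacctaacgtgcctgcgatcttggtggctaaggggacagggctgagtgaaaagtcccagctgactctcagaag
The Acta1 window holds a CArG box starting 73 bases and a CATTCC 46 bases before the start, the Ankrd1 window holds 2 copies of CATTCC read on the other strand, the Xirp2 window a TGANTCA and a MEF2 box, and the Hopx window a CArG box. Of all 32851 promoter windows 14.7% hold CATTCC, 1.63% a CArG box, 7.81% TGANTCA and 3.19% a MEF2 box. Of the 14489 windows of the genes tested 12.6%, 1.33%, 5.34% and 2.04% hold them. Among the 637 windows of the genes higher in ONOFF TAC the shares were 13.7%, 1.26%, 6.28% and 2.04%, and among the 423 of the lower genes 14.9%, 1.89%, 6.86% and 4.26%. Of the 31 windows found for 20 of the 23 stretch-responsive and Z-disc genes 25.8%, 22.6%, 16.1% and 16.1% held them, whether or not the gene was called. A match is a description of letters in the window, and binding was not measured.

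In the sarcomere the skeletal actin gene Acta1, a fetal gene of the heart, had lowest, median and highest levels of 53092, 118868 and 256374 in Con TAC and 116782, 207539 and 307915 in ONOFF TAC. Con TAC M replicates 2 and 4 reached into the upper ONOFF range, and all 10 ONOFF libraries lay above the Con mean of their sex. The log2 difference was 0.90 (SE 0.22, adjusted p = 0.0178; exact permutation within sex, p = 0.00252). Of the 15 tested thin filament genes Acta1 was the 1 called, and cardiac actin Actc1, at 342246 or above in every ONOFF TAC library, had a log2 difference of -0.10 (adjusted p = 0.507). Of 17 myosin chains and kinases 1 was higher and 5 were lower. The nonmuscle myosin Myh10 was the higher one, from a median of 1946 to 2769 (log2 0.51, adjusted p = 0.00111). Myh7b, a slow-type myosin heavy chain, was lower without overlap, at 1896 to 3036 in Con TAC and 808 to 1688 in ONOFF TAC (log2 -0.70, SE 0.11, adjusted p = 0.000946). The kinase gene Mylk4 was 1.33 lower on the log2 scale (adjusted p = 0.0121). The fast adult heavy chain Myh6 and the ventricular light chains Myl2 and Myl3 had log2 differences of -0.50, -0.41 and -0.33 with adjusted p values of 0.0456, 0.0403 and 0.0434, and these calls were lost in 12, 13 and 14 of the 20 single omissions, up to 0.0847. After quantile normalization Myh6 differed by -0.25 (0.213), and without the libraries with atrial markers its adjusted p was 0.053 and that of Myl3 0.0595. With name numbers as a random block Myh6, Myl2 and Myl3 were at 0.0549, 0.0542 and 0.0549. Myh7, the slow heavy chain that mouse hearts turn on under overload, had medians of 122170 and 134213 and a log2 difference of -0.01 (adjusted p = 0.991), the sign of which changed in 7 single omissions. Of the 4 fetal genes, Nppa and Acta1 passed the test and Nppb and Myh7 did not.

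Extracellular matrix genes were higher in ONOFF TAC. No member of the 5 lists of collagens, collagen-modifying enzymes, matricellular proteins, small proteoglycans and matrix proteases was called lower. Over all genes tested 2.78% were lower, which is few calls in lists this short. In the same order 12 of 34, 8 of 29, 15 of 29, 7 of 13 and 9 of 28 tested members were called higher. These are 35.3%, 27.6%, 51.7%, 53.8% and 32.1%, against 4.1% of all genes tested. The median log2 differences of the lists were 0.42, 0.29, 0.65, 0.45 and 0.39. All gene lists used here were chosen with earlier results of these data known, so the counts describe the lists and give no independent support. Bulk tissue cannot tell more fibroblasts from more matrix RNA per fibroblast. None of the 5 general fibroblast markers was called, and their summed level was 37240 to 66770 in Con TAC and 57570 to 71900 in ONOFF TAC, with medians of 49540 and 62890. Of the 5, Col1a1, Dcn and Lum code for matrix proteins, so the sum is no separate measure of fibroblasts. The other 2, the receptor Pdgfra and the transcription factor Tcf21, had log2 differences of 0.26 and -0.14 (adjusted p = 0.0838 and 0.624), and Pdgfra passed without Con TAC M replicate 2 (0.0431) and without the low-Xist libraries (0.0472). The part of fibroblast number in the matrix differences was not tested.

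**Figure D2:**
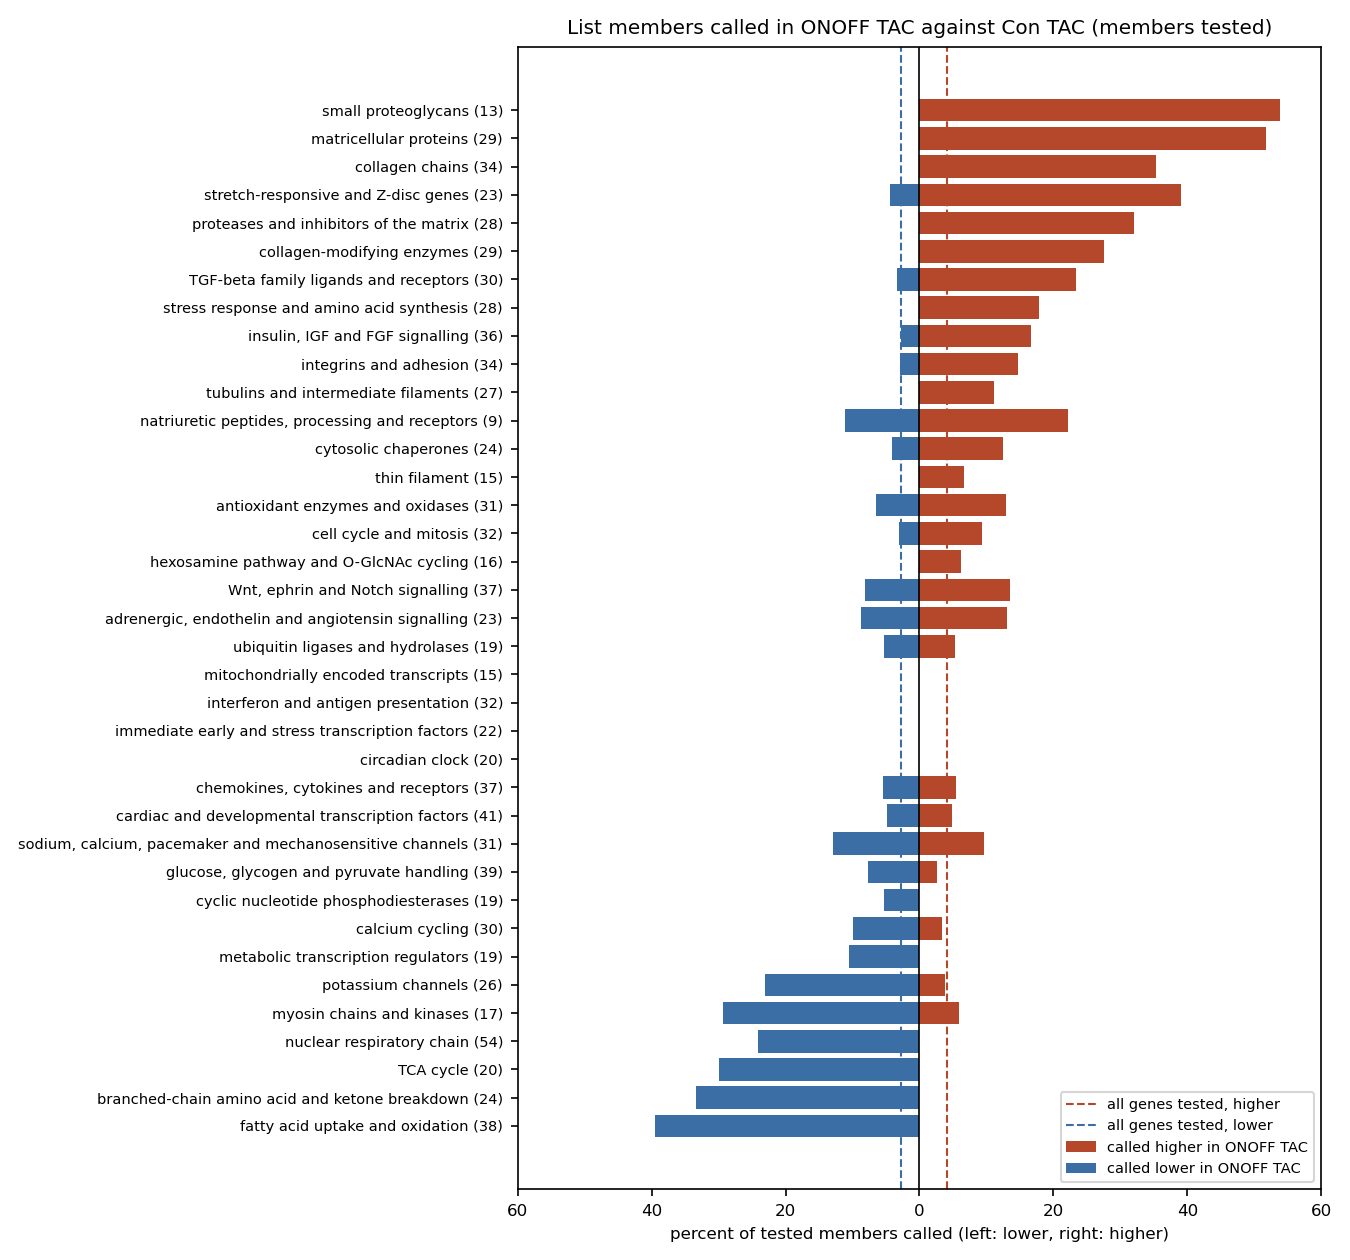
Percent of the tested members of each list, cell type marker lists left out, that were called higher (right) or lower (left) in ONOFF TAC, with the number tested in parentheses and the shares of all 15778 genes, 4.1% higher and 2.78% lower, as dashed lines. Matricellular proteins and small proteoglycans lie furthest right, and fatty acid uptake and oxidation furthest left. The lists were chosen with earlier results of these data known.

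Matricellular proteins sit in the matrix and signal to cells without bearing load. The list of that name also held fibre components, among them the fibrillins Fbn1 and Fbn2 and the elastic fibre proteins Mfap4 and Mfap5. Postn, periostin, the usual mark of activated cardiac fibroblasts, had lowest, median and highest levels of 2219.6, 4183 and 7252 in Con TAC and 5150, 12337 and 20770.3 in ONOFF TAC. Every ONOFF library but F replicate 1 was above every Con library. The difference was 2.79-fold (log2 1.48, SE 0.25, adjusted p = 0.00179). Cilp, a cartilage matrix protein that is found in scarred hearts, went from 433, 1194 and 2346 to 1295, 4699.6 and 8593 (log2 2.06, SE 0.37, adjusted p = 0.00278), and its groups overlapped. Thrombospondin 4, Thbs4, was 3.11-fold higher (adjusted p = 0.000782), with ranges of 750.4 to 1574 and 1257 to 6739.5. Ltbp2, which binds fibrillin, and Mfap4, of the elastic fibres, had log2 differences of 1.79 and 1.39 (adjusted p = 0.00442 and 0.00104). Ccn2, connective tissue growth factor, was named after its value was seen and had a log2 difference of 0.99 (adjusted p = 0.00999).

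Small leucine-rich proteoglycans bind collagen fibrils and set their spacing. The list of small proteoglycans also held proteoglycans outside this family, among them Cspg4 and Vcan, both called higher. Bgn, biglycan, had lowest, median and highest levels of 11005, 15787 and 27126 in Con TAC and 24832, 32338 and 44072 in ONOFF TAC. Con TAC F replicate 2, at 27126, was the 1 Con library inside the ONOFF range. The difference was 1.92-fold (log2 0.94, SE 0.13, adjusted p = 0.000408; exact permutation within sex, p = 6.3e-05). Fmod, fibromodulin, and Omd, osteomodulin, showed log2 differences of 2.04 and 1.25 (adjusted p = 0.000782 and 0.000850). The Fmod call was lost, at 0.0532, when all 40 libraries shared 1 fit. Cspg4, a proteoglycan of pericytes and other mural cells, was higher by 0.34 on the log2 scale (adjusted p = 0.0127). Dcn, decorin, with medians of 29115 and 35572, did not pass the test (log2 0.27, adjusted p = 0.0634). It passed without Con TAC F replicate 2 (0.0161), ONOFF TAC M replicate 3 (0.0351) or the low-Xist libraries (0.018). Quantile normalization (0.0315), library weights (0.0168) and a fit of all 40 libraries (0.0365) also gave a call.

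Among the collagens the largest called difference was that of Col12a1. Col12a1, which links fibrils to their surroundings, did not overlap between the groups, at 22.4, 104 and 208 in Con TAC and 217, 530.3 and 1169 in ONOFF TAC for lowest, median and highest (log2 2.45, SE 0.37, adjusted p = 0.000850). The network-forming chains Col8a1 and Col8a2 differed by 1.02 and 1.29 on the log2 scale (adjusted p = 0.00477 and 0.00179). Col22a1, known from tissue junctions such as those of muscle and tendon, differed by 1.98 and the fibril-associated Col14a1 by 0.56 (adjusted p = 0.0158 and 0.00792), and the Col14a1 call was lost without the F/M term (0.249). Of the 3 chains that form most scar tissue, Col1a2 (0.67, adjusted p = 0.0199) and Col3a1 (0.48, adjusted p = 0.0295), named after their values were seen, were called, and Col1a1, at medians of 10805 and 17199, did not pass the test (log2 0.67, SE 0.20, adjusted p = 0.0508). The Col3a1 call was lost in 7 single omissions (up to 0.0596) and without the libraries with atrial markers (0.0659). Col1a1 passed without any 1 of ONOFF TAC F replicate 1 and, of Con TAC, F replicates 2 and 3 or M replicates 1 and 2, at 0.0155 to 0.0475. Of 15 other settings it stayed uncalled in 9 (adjusted p up to 0.0762) and passed in 6. It passed with a mean filter of 50 (0.0457), quantile normalization (0.0434), library weights (0.011) and a fit of all 40 libraries (0.0306). It also passed without the low-Xist libraries (0.0179) and by exact permutation within sex (unadjusted p = 0.00728).

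Enzymes that finish collagen had 8 of 29 members called, all higher. P3h2, a prolyl hydroxylase, went from a range of 259 to 782 to one of 625 to 1427 (log2 1.15, SE 0.17, adjusted p = 0.000636). The cross-linking lysyl oxidases Lox and Loxl3 had log2 differences of 1.06 and 0.93, and the lysyl hydroxylase Plod2 one of 0.61 (adjusted p = 0.00710, 0.00690 and 0.0115). Lox was 974 in ONOFF TAC M replicate 5 and at most 479 in the other 9 libraries of its group. Of the proteases and their inhibitors Adamts8 stood apart without overlap, at 59.2 to 132 in Con TAC and 142 to 303 in ONOFF TAC (log2 1.37, SE 0.16, adjusted p = 0.000162). Timp1, which inhibits matrix metalloproteases, had a log2 difference of 1.35 (adjusted p = 0.00696), the fibrillin-binding Adamtsl2 one of 1.22 (0.00537) and the protease inhibitor Serpine2 one of 0.56 (0.0131, lost without the F/M term at 0.0983). Adamts20, listed at 0 in the lowest Con library and at a median of 76.5 in Con TAC, reached a median of 353 (adjusted p = 0.0233).

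Transforming growth factor beta drives fibroblasts to make matrix, and of 30 tested genes of its family 7 were higher and 1 was lower. The ligands Tgfb2 and Tgfb3 had log2 differences of 0.94 and 0.59 (adjusted p = 0.00259 and 0.00123), with Tgfb3 at 887 to 1547 in Con TAC and 1407 to 1967 in ONOFF TAC. Fstl3, which binds activins and myostatin, differed by 1.24 (adjusted p = 0.00442). Ltbp1, a latent binding protein and the 1 lower member, named after its value was seen, differed by -0.37 (adjusted p = 0.0161). Integrins and adhesion genes counted 5 higher and 1 lower of 34, among them the neural cell adhesion molecule Ncam1 (1.63, adjusted p = 0.00154), Itgbl1 (1.17, 0.00247), the mesenchymal cadherin Cdh11 (0.73, 0.00516) and the collagen-binding integrin chain Itga11 (0.73, 0.0135).

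**Figure D3:**
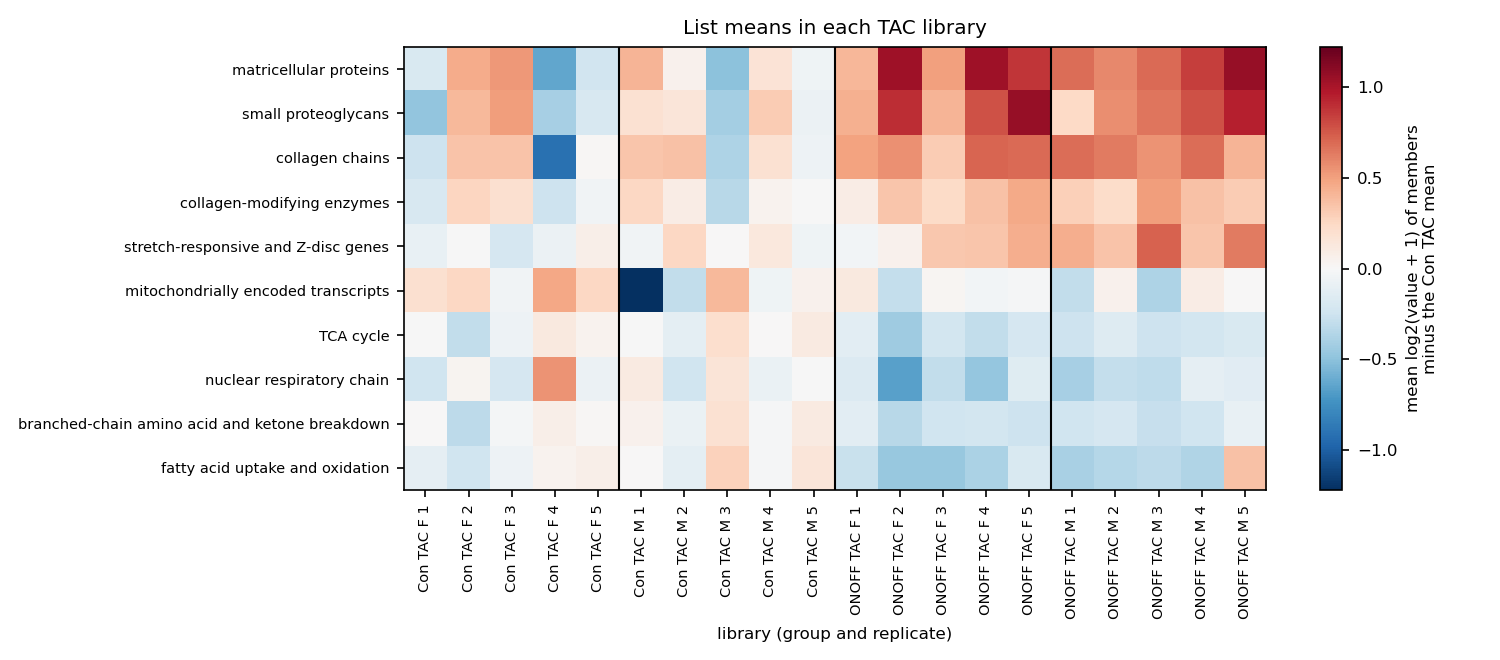
Mean log2(value + 1) of the tested members of 10 lists in each of the 20 TAC libraries, less the mean of the 10 Con TAC libraries, on a colour scale from blue (lower) to red (higher). Collagen chains lay above every Con library in 9 of 10 ONOFF libraries, and fatty acid genes below every Con library in 8, with ONOFF TAC M replicate 5 as the highest of all 20.

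Read library by library, the mean level of the 34 collagen chains, relative to the Con mean, was 0.31 to 0.71 on the log2 scale in ONOFF TAC and -0.91 to 0.36 in Con TAC. The 29 matricellular genes were at 0.41 to 1.06 against -0.63 to 0.53. Con TAC F replicate 4 had the lowest collagen and matricellular means, and ONOFF TAC F replicate 1 the lowest matricellular mean of its group. Fatty acid genes spread the other way, at -0.46 to 0.35 in ONOFF TAC and -0.25 to 0.28 in Con TAC. In ONOFF TAC M replicate 5 the list members Acot1 and Pdk4, named after their values were seen, were at 1623 and 94448 against group medians of 82.2 and 8793. Acot1 was not called (-0.57, adjusted p = 0.535) and was called without that library (0.0150).

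Fatty acids are the main fuel of the adult heart. Of 38 tested genes for their uptake and oxidation 15 were lower and none was higher, with a median log2 difference of -0.29. Acaa2, the thiolase that ends a round of beta oxidation, had lowest, median and highest levels of 14473, 19130.4 and 29626 in Con TAC and 8999.9, 11380.4 and 16639 in ONOFF TAC. The groups overlapped between 14473 and 16639, and all 10 ONOFF libraries lay below the Con mean of their sex (log2 -0.74, SE 0.12, adjusted p = 0.00100). The very long chain dehydrogenase Acadvl, the isomerase Eci1 and the reductase Decr1, which handle long and unsaturated chains, fell by 0.41, 0.55 and 0.54 on the log2 scale (adjusted p = 0.00217, 0.00179 and 0.00577). The largest difference of the list was that of Acaa2, 1.67-fold lower.

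The TCA cycle and the respiratory chain burn what fatty acid oxidation supplies. Of 20 TCA cycle genes 6 were lower and none higher (median -0.22), led by mitochondrial isocitrate dehydrogenase Idh2 (-0.42, adjusted p = 0.00474) and Suclg1 of succinyl-CoA ligase (-0.35, 0.0173). Idh3b (-0.26, 0.0268) and the succinate dehydrogenase chain Sdhc (-0.32, 0.0303) were also called, and lost that in 2 omissions, of Con TAC M replicates 3 and 5 (up to 0.0534), and in 5 omissions (up to 0.059). Idh3b and Sdhc also lost it after quantile normalization (0.0596 and 0.0682), and Idh3b without the libraries with atrial markers (0.0746). Of 54 nuclear genes of the respiratory chain 13 were lower and none higher, and all 54 had a log2 difference below 0 (median -0.29). The muscle isoform Cox7a1 of complex IV ranged from 12795 to 30410.3 in Con TAC and from 9522 to 15409 in ONOFF TAC (log2 -0.54, adjusted p = 0.00613), and the complex I core genes Ndufs1 and Ndufv1 and the ATP synthase chain Atp5f1a fell by 0.33, 0.35 and 0.28 on the log2 scale (adjusted p = 0.00705, 0.0122 and 0.0132, the last 0.0595 after quantile normalization). None of the 15 transcripts encoded in the mitochondrial genome was called (median -0.08, with -0.25 in females and 0.06 in males). Relative to the Con mean, their mean level was -1.22 on the log2 scale in Con TAC M replicate 1. The other Con libraries ran from -0.30 to 0.476, and ONOFF TAC from -0.375 to 0.123. Whether the lower levels are confined to nuclear genes was not tested. Over the single omissions the nuclear list had 8 to 23 lower calls and the TCA list 3 to 11, against 10 to 16 higher collagens and 12 to 16 higher matricellular genes.

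Breakdown of branched-chain amino acids and ketones showed 8 lower and no higher gene of 24 (median -0.22), among them Mccc2 (-0.47, adjusted p = 0.00327) and Auh (-0.30, 0.0132) of leucine breakdown, the branched-chain ketoacid dehydrogenase chain Bckdha (-0.40, 0.0144) and the thiolase Acat1 (-0.27, 0.00955). Of 39 glycolysis and glucose genes 1 was higher (2.56%, against 4.1% of all genes tested) and 3 were lower (7.69%, against 2.78%). Pfkp, the platelet form of phosphofructokinase, was higher by 0.54, and the muscle form Pfkm was lower, at -0.28 (adjusted p = 0.00577 and 0.0180). Pfkm differed by -0.16 with an adjusted p of 0.111 after quantile normalization. Pfkfb1, which sets the fructose 2,6-bisphosphate signal, fell from a median of 155 to 46.3 (log2 -1.46, adjusted p = 0.00210), and the muscle enolase Eno3 fell by 0.39 on the log2 scale (0.0163). Of 19 transcription regulators of metabolism, 2 were lower: Rxrg, a retinoid X receptor (-0.42, 0.00935), and the coactivator Ppargc1b (-0.42, 0.0251; 0.0502 without ONOFF TAC F replicate 5). Its relative Ppargc1a had a similar difference of -0.36 but did not pass (0.156). Ppargc1a passed without Con TAC F replicate 2 (0.0194), without the low-Xist libraries (0.0272) and with library weights (0.00805).

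Ion channels and calcium proteins set the action potential and the beat. Of 26 potassium channel genes 6 were lower and 1 higher. Kcnv2, a silent subunit that modifies Kv2 channels, went from 234, 335 and 548 in Con TAC to 107, 169.6 and 334 in ONOFF TAC for lowest, median and highest (log2 -1.08, SE 0.17, adjusted p = 0.00100). Kcnd2, which carries the transient outward current of rodent ventricle, Kcnj3, a G protein-gated channel, and Abcc9, the regulatory subunit of the KATP channel, fell by 0.93, 0.85 and 0.49 on the log2 scale (adjusted p = 0.0133, 0.00690 and 0.0115). Among 31 sodium, calcium, pacemaker and mechanosensitive channel genes 3 were higher and 4 lower. The stretch-gated channel Piezo2 rose from a median of 39.0 to 134 (log2 1.96, adjusted p = 0.00163) and the calcium channel beta subunit Cacnb1 by 0.59 (0.00335). The chloride channel Clcn1 fell by 1.83 (0.0133), and the main L-type channel Cacna1c by 0.32, with an adjusted p of 0.0307 that was lost in 8 single omissions (up to 0.0635) and without the libraries with atrial markers (0.0762).

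Of 30 calcium cycling genes 1 was higher (3.33%) and 3 were lower (10%), against 4.1% and 2.78% of all genes tested. Ryr3, the ryanodine receptor that ventricles use least, was the higher one, at 48.5, 82.9 and 474 in Con TAC and 113, 555 and 1307 in ONOFF TAC. Its groups overlapped, since Con TAC M replicate 2 held 474 and ONOFF TAC F replicate 1 113 (log2 2.20, SE 0.41, adjusted p = 0.00298). Strit1, whose small protein DWORF frees the calcium pump from its inhibitor, fell by 0.77, the pump inhibitor phospholamban, Pln, by 0.32 and the calcium-binding protein Hrc by 0.32 on the log2 scale (adjusted p = 0.00682, 0.0135 and 0.0104). Adrenergic, endothelin and angiotensin genes counted 3 higher and 2 lower of 23. Grk5, the kinase that desensitizes beta adrenergic receptors, went from 1490.5, 1779 and 2029.8 to 1859, 2634 and 3288 (log2 0.58, SE 0.08, adjusted p = 0.000568), with an overlap between 1859 and 2029.8. Ace, which makes angiotensin II, rose by 0.68 and Edn3, endothelin 3, by 1.30 (adjusted p = 0.00335 and 0.00442). The alpha 1 adrenergic receptors fell, Adra1b by 0.74 and Adra1a, named after its value was seen, by 0.96 (0.00896 and 0.0158). Pde11a was the 1 called phosphodiesterase of 19 (5.26%, against 6.88% of all genes tested), lower by 1.12 (0.0169).

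Some growth factor and developmental regulator genes were called. Igf1r, the receptor for insulin-like growth factor, showed no overlap, with lowest, median and highest levels of 1105, 1155 and 1366 in Con TAC and 1515, 1612 and 1947 in ONOFF TAC. Without overlap the exact permutation p within sex is bound to be the smallest that 63504 splits can give, 3.15e-05, and adds no support. The log2 difference of Igf1r was 0.50 (SE 0.06, adjusted p = 0.000248). Its ligand Igf1 rose by 0.85, the binding protein Igfbp6 by 0.65 and the growth factor Hbegf by 0.46 (adjusted p = 0.00333, 0.00437 and 0.0210), among 6 higher and 1 lower of 36 insulin, IGF and FGF genes. Among Wnt, ephrin and Notch genes 5 of 37 were higher, with the secreted Wnt antagonist Frzb (0.60, 0.00335) and the receptor Fzd2 (0.67, 0.00612), and 3 lower. The lower ones were led by Efnb3, ephrin B3, a membrane ligand of Eph receptors, at 1568, 2463 and 3515 in Con TAC and 472, 811 and 2181 in ONOFF TAC. ONOFF TAC F replicate 1 was the 1 library that lay well inside the Con range (log2 -1.46, SE 0.22, adjusted p = 0.000909). The Eph receptor gene Epha4 fell by 0.84 (0.00327).

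Of 41 cardiac and developmental transcription factors 2 were higher and 2 lower, 4.88% each way against 4.1% and 2.78% of all genes tested. Hopx, the homeodomain protein that restrains serum response factor, had lowest, median and highest levels of 5466, 7919.8 and 11508 in Con TAC and 2996, 3960.4 and 6695 in ONOFF TAC. ONOFF TAC F replicate 1 was the 1 ONOFF library above the lower Con values, and the other 9 lay below all 10 Con libraries (log2 -0.95, SE 0.13, adjusted p = 0.000304). Snai3, of the Snail family, fell by 1.34 (0.0149). The TEAD cofactor Vgll2 rose from a median of 342 to 1540 (1.87, 0.00769) and the T-box factor Tbx15 by 0.88 (0.0108; 0.198 in a fit of all 40 libraries). The other 37 were not called.

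Uchl1, a ubiquitin C-terminal hydrolase best known from neurons, was the 1 higher gene of 19 ubiquitin ligases and hydrolases. Asb2, a ligase subunit of muscle, was the 1 lower (-0.29, 0.0390). Each is 5.26% of the list, against 4.1% and 2.78% of all genes tested. The Asb2 call was lost in 14 single omissions (up to 0.0789), after quantile normalization (0.109) and without the libraries with atrial markers (0.0634). The lowest, median and highest Uchl1 levels were 385, 539.5 and 872 in Con TAC and 835, 1306 and 1933 in ONOFF TAC, so that Con TAC M replicate 1 was the 1 Con library to reach the lowest ONOFF value (log2 1.29, SE 0.15, adjusted p = 0.000162). Of 28 genes of the integrated stress response and amino acid synthesis 5 were higher and none was lower: the mitochondrial folate enzyme Mthfd2 (1.35, 0.00163), the glutathione-degrading Chac1 (0.79, 0.0135), the proline synthesis enzyme Pycr1 (0.63, 0.0162; 0.0554 in a fit of all 40 libraries), Aldh18a1 of the same pathway, named after its value was seen (0.56, 0.0189) and the transcription factor Atf5 (0.34, 0.0153). Nox4, an NADPH oxidase that makes hydrogen peroxide, rose from 89.2 to 224 in the median (1.48, 0.00295), the secreted peroxidase Gpx3 by 0.57 (0.00503), and the monoamine oxidase Maob fell by 0.65 (0.00744), among 4 higher and 2 lower of 31. Of 27 tubulins and intermediate filaments 3 were higher, the keratins Krt18 (1.92, 0.00163) and Krt80 (1.44, 0.0149) beside Des. Of 32 cell cycle genes Cdkn1a, the inhibitor p21, rose by 0.78 (0.0188), cyclin Ccnd2 by 0.52 (0.00623), and the inhibitor Cdkn1c fell by 0.61 (0.00228). Of 24 chaperones 3 were higher, among them the small heat shock protein Hspb7 (0.32, 0.0192; 0.0509 without the libraries with atrial markers), and Dnajb5 was lower (-0.48, 0.0114).

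No gene of 22 immediate early factors, 20 clock genes or 32 interferon and antigen presentation genes was called. The share over all genes tested was 6.88%, which is few calls in lists this short. In the interferon and antigen presentation list 24 of 32 members had a log2 difference below 0. Its median was -0.35 in females and 0.06 in males. Of 37 chemokines, cytokines and receptors 2 were higher and 2 lower, 5.41% each way against 4.1% and 2.78% of all genes tested. The higher ones included the alarmin Il33 (0.60, 0.0130, and 0.0687 without the libraries with atrial markers). The lower ones were the eosinophil chemokine Ccl11 (-1.24, 0.0169) and the platelet chemokine Ppbp (-1.72, 0.0216). Markers of atrial muscle, endothelium, macrophages, lymphocytes, neutrophils, red cells, fat and the outer heart surface gave no call either. In the other marker lists Kcnj8 of 6 smooth muscle and pericyte genes was lower (-0.30, 0.0193), Ppbp of 4 platelet genes was lower, and Pmp22 of 4 Schwann cell genes was higher (0.31, 0.0387). The 3 other Schwann cell genes had log2 differences below 0, and the median of that list was -0.19. Of 3 tested skeletal muscle markers Acta1 was higher and Ckm, muscle creatine kinase, lower (-0.40, 0.0318). Single omissions ended the Ckm call 11 times (up to 0.0627) and the Pmp22 call 12 times (up to 0.0785), and leaving out the libraries with atrial markers ended those of Pmp22 (0.0966) and Kcnj8 (0.0508). The summed macrophage markers were 4572 to 8357 in Con TAC and 5144 to 8825 in ONOFF TAC, and the endothelial ones 26190 to 46420 and 26710 to 34350. Of 8 ventricular muscle markers 4 were lower, the 3 myosin genes named above and Pln, and their sum was 2181000 to 4218000 in Con TAC and 1810000 to 2563000 in ONOFF TAC, with medians of 2762000 and 2240000. Its part in the lower metabolic and channel genes was not tested.

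Genes outside the lists changed as well. Cda, cytidine deaminase, was 33.1 to 142 in Con TAC and 185 to 344 in ONOFF TAC, without overlap (log2 1.88, SE 0.23, adjusted p = 0.000166), and its log2 difference in sham hearts, 1.95, stood beside it. Shisa3, a membrane protein that restrains Wnt and FGF receptors, rose by 1.19 (0.000166), the prostaglandin carrier Slco2a1 by 1.03 (0.000260), the synaptic vesicle protein Syn2 by 1.24 (0.000355) and the membrane glycoprotein Gpnmb by 1.58 (0.000408). Star, which brings cholesterol into mitochondria, rose by 2.35 (0.000982), and Mlph, an adaptor of vesicle transport, by 2.07 (0.00100). Ces1d, a carboxylesterase of lipid breakdown, fell from 841, 2349 and 5287 to 171, 538 and 1589 (4.26-fold, SE 0.40 on the log2 scale, adjusted p = 0.00439), Prr33 by 1.58 (0.00179), Epb41l3, a membrane skeleton protein, by 1.10 (0.00183) and Hhatl by 0.49 (0.000782).

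The 17 genes whose groups did not overlap were listed after their values were seen. Beside Adamts8, Cda, Col12a1, Igf1r and Myh7b they were Aebp1, a collagen-binding protein, Pam, which amidates peptides and is abundant in heart muscle, the microtubule protein Map1a, the kinesin Kif1a, the tubulin ligase-like Ttll12, the tendon protein Tnmd, the zinc transporter Slc39a13, Crispld1, Fam180a, Fhad1, Hacd4 and, as the 1 other lower gene, Magix. Pam was at 25104 to 45291 in Con TAC and 45770 to 63634 in ONOFF TAC (log2 0.59, adjusted p = 0.000601). Tnmd was listed at 0 in the lowest Con library and reached at most 17.3 there, against 34.9 to 157 in ONOFF TAC (adjusted p = 0.000888). Magix was at 819 to 1394 in Con TAC and 490.2 to 813 in ONOFF TAC (log2 -0.59, adjusted p = 0.000969), a gap of less than 10 between the nearest libraries.

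All 1086 called genes had the same sign in females and in males, which a call over both sexes favours by its construction. With 5 against 5 libraries, 2 genes (0.0127%) were called in females, 1756 having an unadjusted p below 0.05, and 395 (2.5%) in males, of 2451, with 247 (1.57%) higher and 148 (0.938%) lower. Of the 395 male calls 340 were among the 1086, which come from a fit that includes the same male libraries. Over single omissions the female count was 0 to 120 and the male count 99 to 716, the highest without ONOFF TAC F replicate 1 and Con TAC M replicate 2. The difference between the sexes itself gave no call in limma (lowest adjusted p = 0.313), with 591 genes at an unadjusted p below 0.05, and with library weights it gave 1. Shisa3 was called in females (1.34 log2, adjusted p = 0.0320) and in males (1.04, 0.0121). Nppa differed by 1.32 in females and 1.88 in males, Postn by 1.37 and 1.59, Hopx by -0.75 and -1.16, and Prr33 by -0.89 and -2.27. Con TAC F replicates 2 and 3, the low-Xist libraries, belong to the female groups, and without them 55 genes were called in females.

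**Figure D4:**
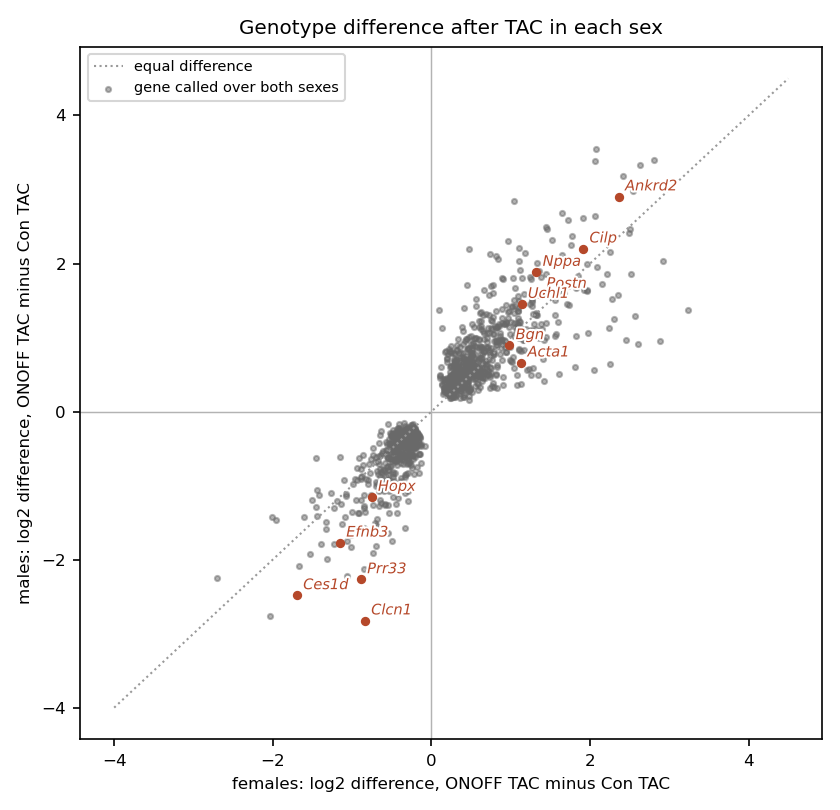
Log2 difference between ONOFF TAC and Con TAC in females (horizontal) and in males (vertical) for the 1086 genes called over both sexes, with the line of equal difference dotted and 12 genes named in colour. All points lie at the upper right or lower left of the crossing zero lines, and Clcn1 and Prr33 lie below the line.

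The sham libraries give the genotype difference without overload. In a fit of all 40 libraries the genotype difference after TAC differed from that after sham for 73 of 16395 genes (0.445%). Of these, 39 (0.238%) were more positive and 34 (0.207%) more negative. Of the 73, 65 were among the 1086, an overlap favoured by construction because both tests use the same TAC libraries. In sham hearts alone 23 genes (0.14%) were called, 19 (0.116%) higher and 4 (0.0244%) lower, 9 of them also after TAC. Grk5 gave the lowest p of the named genes: its log2 difference was 0.58 after TAC and -0.23 after sham, with medians of 1693 in Con and 1475 in ONOFF sham (adjusted p of the difference = 0.000373). Slco2a1 (1.03 and -0.28, 0.00481) and Ryr3 (2.20 and -0.55, 0.0195) also had opposite signs in the 2 settings, and so did Hhatl (-0.49 and 0.09, 0.00243) and Ttll1, a tubulin-modifying enzyme (-0.66 and 0.19, 0.0195). The TAC difference was the larger, with the same sign in sham, for Hopx (-0.95 and -0.13, 0.0199), Efnb3 (-1.46 and -0.26, 0.0292), Bgn (0.94 and 0.09, 0.0240), P3h2 (1.15 and 0.06, 0.0195), Postn (1.48 and 0.18, 0.0474), Xirp2 (0.91 and 0.22, 0.0327) and Igf1r (0.50 and 0.03, 0.0479). Nppa (0.153), Acta1 (0.601), Cilp (0.137), Uchl1 (0.381) and Oga (0.192) did not pass that test, and the log2 differences of Uchl1 in TAC and sham were 1.29 and 0.88. The summed atrial markers were 68.4 to 12880 in the 20 sham libraries, with a median of 1394. Their median in the 20 TAC libraries was 149. The part of atrial tissue in the Nppa result was not tested. The count of 73 ranged from 9 without ONOFF TAC F replicate 5 to 252 without ONOFF TAC F replicate 1 over the fits that left out 1 of the 40 libraries.

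**Figure D5:**
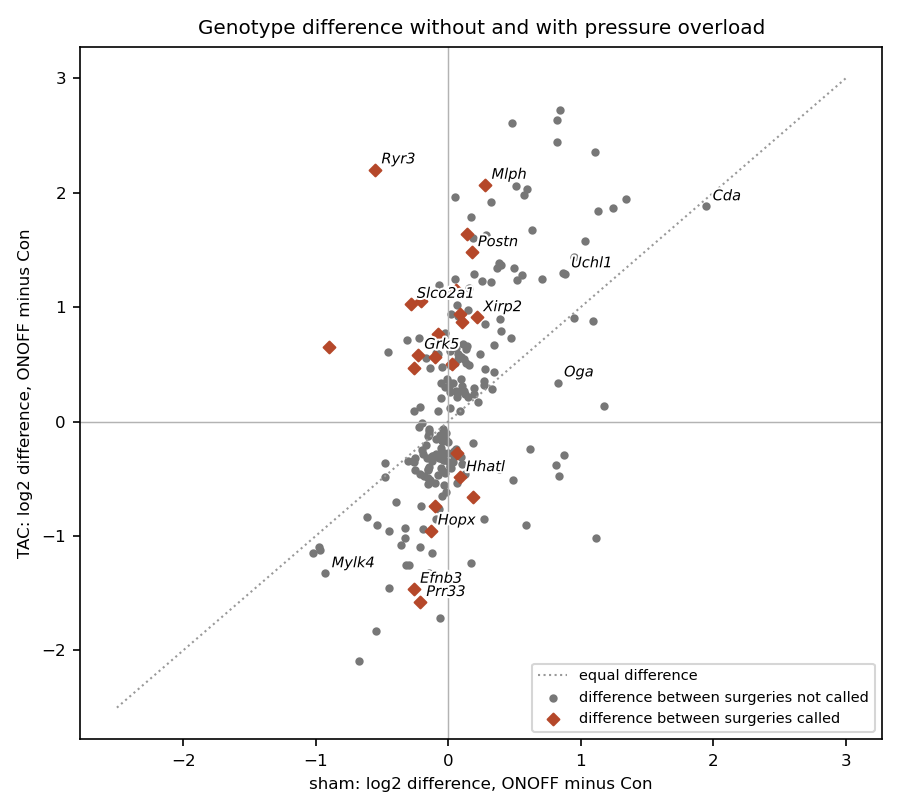
Log2 difference between ONOFF and Con after sham (horizontal) and after TAC (vertical) for the genes named by the rule, with those whose difference between surgeries was called as red diamonds and the line of equal difference dotted. Grk5, Slco2a1 and Ryr3 lie above 0 after TAC and below 0 after sham, and Cda lies near the line.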

How the data were processed

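RNA of left ventricles was sequenced from stranded total RNA libraries, per the labels' protocols. Per the submitters' processing notes the tools were FastQC 0.11.7, MultiQC 0.8, STAR 2.7.3a, Salmon, R 4.3.1 and DESeq2 on genome build GRCm39, with no order or role given. The authors deposited 1 table of 22676 genes and 40 libraries of normalized counts, treated as signal: the values are not whole, no raw counts were used here, and a count model was therefore not run.

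Values were taken as log2(value + 1) for genes at 10 or above in at least 5 of the libraries fitted, and tested with limma 3.58.1 in R 4.3.3 (trended, robust empirical Bayes, Benjamini-Hochberg adjustment over all genes tested, threshold 0.05). The 20 TAC libraries were fitted with genotype and F/M terms, the sexes and their difference with 4 group means, and the difference between surgeries with 8 group means in 40 libraries. For 12 genes the labels were permuted exactly within sex (63504 splits, two-sided). The scripts were tested on simulated data. Figures were drawn with matplotlib 3.10.9.

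The members and the 51 gene lists were chosen with earlier results of these data known. Named genes are a fixed set (Oga, Ogt and the usual hypertrophy and fibrosis genes), in each list the 4 members lowest in p, and, where the higher group averaged 100 or more, the 15 largest and 15 smallest called differences and the 10 smallest p, and the 6 smallest p of each difference between sexes and surgeries. Not all of them are printed. Fold changes of low genes are understated by the added 1. Alternatives were other pseudocounts, filters, rescaling by TMM (the usual trimmed-mean formula) or quantiles, library weights, other models, a replicate block, and leaving out each library. Leaving out the low-Xist libraries, the TAC libraries with an atrial marker sum over 1000, and 3 sham libraries with over 5000 genes at 0 was chosen after seeing the data. Sham libraries were not left out for atrial markers. Promoter sequence came from a RefSeq table on GRCm38.p6, another build than that of the counts, and was matched by symbol.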

Additional observations from a re-analysis of the deposited data

Results flagged for a closer look

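Within the groups of 5 libraries of 1 genotype and sex, 50 of 708 gene and group pairs (7.06%) had a highest or lowest library set apart from the other 4 by more than 0.71 of the whole range. Chance alone sets apart about 1 in 20. These pairs are listed by library, each value beside the range of the other 4.

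In ONOFF TAC M replicate 5 the values were Acadvl at 37320 against 28520 to 30280, Acot1 at 1623 against 54.9 to 89.7, Asb2 at 11470 against 16180 to 17220 and Cacnb1 at 912 against 1068 to 1136. The same library had Krt18 at 452 against 771 to 956, Myl4 at 2576 against 86.8 to 168, Myl7 at 525 against 5.28 to 15.1 and Pdk4 at 94450 against 6403 to 9497. The same library had Pfkfb1 at 121 against 33.7 to 48.4. Con TAC F replicate 4 had Acat1 at 26280 against 22170 to 23140, Ano10 at 5999 against 820.3 to 1435, Ccnd2 at 2733 against 4286 to 4523 and Eci1 at 12230 against 8116 to 9053. The same library had Kif1a at 31.0 against 113 to 148, Krt80 at 138 against 518 to 710.4, Map1a at 284 against 674 to 867 and Star at 13.5 against 46.2 to 66.6. In Con TAC M replicate 2 the values were Dok5 at 190 against 12.6 to 22.1, Epb41l3 at 147 against 209 to 238, Hopx at 5466 against 8382 to 9906 and Krt80 at 767 against 148 to 176. The same library had Pde11a at 68.4 against 115 to 134. Con TAC F replicate 2 had Adra1a at 83.7 against 187 to 254, Adra1b at 559 against 1211 to 1433, Atp5f1a at 142200 against 165800 to 172700 and Kcnd2 at 304 against 679.7 to 889. The same library had Kcnj3 at 713 against 1483 to 1881. In ONOFF TAC F replicate 1 the values were Col8a2 at 141 against 263 to 307, Hopx at 6695 against 3887 to 4516, Itga11 at 295 against 422 to 479 and Itgbl1 at 672 against 1708 to 2157. The same library had Nox4 at 92.6 against 233 to 334. Con TAC M replicate 1 had Des at 178800 against 112700 to 126500, Kcnd2 at 506 against 756 to 872, Ppargc1b at 478 against 386 to 403 and Sdhc at 32310 against 19930 to 21610. In Con TAC M replicate 3 the values were Frzb at 642 against 971 to 1085, Myl4 at 136 against 59.7 to 73.9, Timp1 at 56.7 against 132 to 167 and Tnmd at 0 against 8.72 to 11.9. Con TAC F replicate 3 had Myl4 at 7662 against 65.4 to 183 and Myl7 at 3975 against 2.15 to 10.0. In ONOFF TAC M replicate 3 the values were Lmcd1 at 5050 against 3019 to 3407 and Pfkp at 8923 against 5258 to 6119. ONOFF TAC F replicate 4 had Igf1r at 1947 against 1515 to 1583 and Tnmd at 157 against 37.0 to 55.8. In ONOFF TAC F replicate 5 the values were Abcc9 at 5497 against 7002 to 7379. ONOFF TAC F replicate 2 had Morn4 at 246 against 303 to 329. In ONOFF TAC M replicate 2 the values were Adamts8 at 183 against 272 to 303. ONOFF TAC M replicate 1 had Ankrd23 at 79730 against 64530 to 68580.

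For 26 of the genes named above the genotype difference itself differed between TAC and sham in limma on all 40 libraries (adjusted p in parentheses). The log2 difference after TAC minus that after sham was above 0 for 18: Grk5 0.81 (0.000373), Slco2a1 1.31 (0.00481), P3h2 1.09 (0.0195), Bcr 0.72 (0.0195), Ryr3 2.75 (0.0195), Bgn 0.85 (0.0240), Npr3 0.85 (0.0292), Lox 1.26 (0.0306), Fhl1 1.10 (0.0306), Pam 0.54 (0.0318), Xirp2 0.69 (0.0327), Ttll12 0.38 (0.0409), Mlph 1.79 (0.0409), Serpine2 0.66 (0.0474), Synpo2l 0.77 (0.0474), Postn 1.30 (0.0474), Igf1r 0.47 (0.0479), Thbs4 1.50 (0.0479). It was below 0 for 8: Hhatl -0.58 (0.00243), Ttll1 -0.85 (0.0195), Hopx -0.83 (0.0199), Efnb3 -1.20 (0.0292), Prr33 -1.37 (0.0292), Magix -0.58 (0.0299), Acat1 -0.34 (0.0425), Acaa2 -0.64 (0.0479). The sexes gave no such call.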

How the results depend on the processing

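Of the 161 called genes named above 118 kept direction and call under every alternative run, and 6 of the 16 uncalled ones stayed uncalled with the same sign. The count of 1086 genes was 2125 with library weights (1150 higher, 975 lower, 1063 of the 1086 among them) and 601 with the replicate number within each sex as a block (420 higher, 181 lower, 583 of the 1086 among them). The numbers do not pair the libraries: the correlation of same-numbered deviations ran from -0.106 to 0.112, and 1 of 10 was over 0.1. That replicate block ended the call of 35 named genes, at adjusted p of 0.0501 to 0.129, and gave 0 genes in females and 28 in males. Single omissions gave 762 to 1476 genes in all, 494 to 805 higher and 268 to 672 lower, the lower count being 672 without Con TAC F replicate 2 and 268 to 290 without ONOFF TAC M replicate 3, Con TAC M replicates 3 and 5 or ONOFF TAC F replicate 4. Females went from 2 genes to 1 with a pseudocount of 10, with a mean filter of 50 and with quantile normalization, to 120 with library weights, 55 without the low-Xist libraries, 65 without those with atrial markers, and 0 to 120 over single omissions. Males went from 395 to 1454 with library weights, 263 without the atrial-marker libraries, and 99 (without Con TAC M replicate 3) to 716 (without Con TAC M replicate 2) over single omissions. The difference between sexes went from 0 to 1 gene with library weights and in 2 single omissions (0 to 1). The 73 genes that differed between surgeries became 30 with no filter, 120 with quantile normalization and 449 with library weights. They became 151 without the low-Xist libraries and 247 without the 4 TAC libraries with atrial markers. Sham libraries with atrial markers stayed in that fit. Without 3 Con sham libraries rich in genes at 0 the count was 131. Single omissions gave 9 to 252, and 28 of 40 moved the count by more than 1.5 times. The remaining settings left these counts within 1.5 times.

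Only Myh7 and Pdk4, both uncalled, changed sign. Myh7 was at 0.16 with library weights, 0.0020 with name numbers of the libraries as a random block, 0.035 without the low-Xist and 0.11 without the atrial-marker libraries, and -0.080 to 0.11 over single omissions. Pdk4 was at -0.34 with library weights, -0.13 without the atrial-marker libraries and -0.30 (without ONOFF TAC M replicate 5) to 0.20 over single omissions. The causes were not tested. By list, the calls without the atrial-marker and without the low-Xist libraries were 16 and 18 lower for fatty acid genes (15 in all libraries), 3 and 11 for the TCA cycle (6), 9 and 18 for the respiratory chain (13), 13 and 19 higher for collagens (12) and 14 and 19 for matricellular genes (15).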

Other observations

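Of the 23 genes that differed between the genotypes in sham hearts, 9 also differed after TAC, and all 9 with the same sign. Besides Cda, Uchl1, Oga and Abcc9 they included Ptk2b, a calcium-responsive tyrosine kinase, with log2 differences of 0.93 after sham and 0.76 after TAC (limma adjusted p = 0.0221 and 0.00696), Morn4 (0.67 and 0.46, 0.0223 and 0.0158) and the dynein chain gene Dnai1 (0.70 and 0.57, 0.0447 and 0.0216). Uchl1 had medians of 354 and 629 in Con and ONOFF sham and of 539.5 and 1306 after TAC. Abcc9, a KATP channel subunit, had log2 differences of -0.47 and -0.49. Ptk2b, Morn4 and Dnai1 were named after their values were seen.

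Several genes called after TAC had a difference of like size in sham that did not pass the test there. Dok5, an adaptor of receptor tyrosine kinases, was at 1.34 in sham and 1.95 after TAC on the log2 scale (adjusted p = 0.254 and 0.00488). Ano10, of the anoctamin family, was at -1.02 and -1.15 (0.320 and 0.0176), and its Con TAC range of 820.3 to 5999 included 1 library, Con TAC F replicate 4, far above the rest. The heat shock gene Hspa1l was at 0.95 and 0.90 (0.186 and 0.0325), and its TAC call was lost in 9 single omissions (up to 0.0645) and without the libraries with atrial markers (0.0681). Bcr took opposite signs, at -0.26 and 0.47 (adjusted p of the difference = 0.0195).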
